A study of Mus musculus with 36 samples.

Results

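The RNA of mouse embryonic stem cells (ESC) without Bod1L was compared with that of wild-type cells of the same line in serum medium. Of the 36 RNA-seq libraries, 4 belonged to this comparison by their sample titles, 2 labelled "ESCFCS Bod1L KO Tamoxifen" and 2 labelled "ESCFCS Bod1L WT". The first group had the genotype Bod1L KO and the second WT, and both grew with LIF (leukaemia inhibitory factor) and FCS (foetal calf serum). Tamoxifen, which is commonly used to switch on an inducible Cre recombinase, is named for the KO cells and not for the WT cells, so the effects of the drug and of the genotype cannot be told apart. Each group held 2 biological replicates, called replicate 1 and replicate 2 by their labels. These were cultures of 1 line, so the p-values do not measure a spread between independent Bod1L lines. Unless stated otherwise, they rest on the spread between replicates, estimated over all 36 libraries. The remaining libraries held the same line in 2i medium and EpiSC medium, and a Setd1a and an Mll2 line in all 3 media. Their KO cells likewise carry tamoxifen in the labels. Of these, 16 are used below, 4 each from Bod1L cells in 2i, Bod1L cells in EpiSC medium, Setd1a cells in FCS and Mll2 cells in FCS.

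BOD1L is a large chromatin protein that associates with the methyltransferase SETD1A, one of the COMPASS family of enzymes that place methyl groups on lysine 4 of histone H3, a mark of active promoters. It is also known as a protector of stalled replication forks. MLL2, encoded by Kmt2b, is another enzyme of this family and serves as a comparison with a different complex. The study's title links BOD1L to the expression of DNA repair genes.

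The main result was a small group of genes whose RNA was lower without Bod1L, most of them expressed at a moderate level in WT cells. Many of their promoters are rich in CpG, as are those of most active genes, and 23 of the 45 genes start head to head with a neighbour. The promoters of 2 of the lowered genes that differed from the Mll2 line by a direct test are shown here, from RefSeq (GRCm38.p6). Each runs from 250 bases before to 50 bases after the gene's start, on the gene's own strand, with CpG dinucleotides in capitals. Det1 lies at chr7:78847162-78847461 on the minus strand and Ercc6l2 at chr13:63814990-63815289 on the plus strand.
Det1: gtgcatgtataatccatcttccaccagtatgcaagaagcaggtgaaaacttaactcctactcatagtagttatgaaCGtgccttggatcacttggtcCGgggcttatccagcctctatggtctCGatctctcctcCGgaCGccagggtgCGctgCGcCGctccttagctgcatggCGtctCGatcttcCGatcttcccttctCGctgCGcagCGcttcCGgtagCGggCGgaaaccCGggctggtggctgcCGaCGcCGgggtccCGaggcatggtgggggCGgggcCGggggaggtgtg
Ercc6l2: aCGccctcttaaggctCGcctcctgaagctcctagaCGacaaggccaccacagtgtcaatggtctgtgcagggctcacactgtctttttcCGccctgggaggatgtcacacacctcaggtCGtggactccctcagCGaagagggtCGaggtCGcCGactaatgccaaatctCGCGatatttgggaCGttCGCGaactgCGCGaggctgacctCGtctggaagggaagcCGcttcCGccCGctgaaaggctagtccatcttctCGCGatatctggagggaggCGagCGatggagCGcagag
The first held 24 CpG in 300 bases and the second 25.

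The third stretch, chr2:132815891-132816190 on the plus strand, holds the starts of Mcm8 and of its neighbour Trmt6, which runs the opposite way. The capitals mark the bases between the 2 starts, at 132816055 for Trmt6 and 132816141 for Mcm8. It is shown because Mcm8 was lowered and Trmt6 was not called.
Mcm8 and Trmt6: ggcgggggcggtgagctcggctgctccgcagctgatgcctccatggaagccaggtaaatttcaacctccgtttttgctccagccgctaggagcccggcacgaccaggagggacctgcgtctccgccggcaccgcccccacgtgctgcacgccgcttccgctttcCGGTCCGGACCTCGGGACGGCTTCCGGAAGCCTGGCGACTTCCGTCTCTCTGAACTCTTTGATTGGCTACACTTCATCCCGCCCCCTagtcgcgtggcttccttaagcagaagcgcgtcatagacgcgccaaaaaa

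The 4 libraries held 29.8 to 34.9 M counts on genes, and levels are given as CPM (counts scaled to library size). Mitochondrial genes took 2.46% to 3.89% of the counts. The 2 KO libraries differed more than 2-fold from each other in 1440 of 12244 genes at 5 CPM or more (11.8%), and the 2 WT libraries in 704 (5.75%). KO replicate 2 also stood apart by transcript length. Protein-coding genes were split by exonic length into 4 classes of like size. In the longest class its level lay at a median log2 ratio of -0.35 to KO replicate 1, and in the shortest class at 0.27. Between the 2 WT libraries these medians were -0.06 and -0.02. General pluripotency markers were high in all 4 libraries. Pou5f1, which encodes OCT4, had 599 and 989 CPM in KO cells, against 504 and 676 CPM in WT cells. Sox2 had 296 and 440 CPM in KO cells, against 267 and 386 CPM in WT cells, so this defining pair of ESC genes was abundant in each library.

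Bod1l itself had the smallest adjusted p of all genes. It had 45.9 and 33.6 CPM in KO cells, against 254 and 345 CPM in WT cells. The means were 39.8 ± 8.68 CPM in KO cells and 299 ± 63.9 CPM in WT cells (SD, n = 2 each). The groups were far apart, and KO cells kept 13.3% of the WT level. The log2 fold change was -2.91 ± 0.253 (SE; adjusted p = 1.53e-06, edgeR quasi-likelihood test in 1 model of all 36 libraries). Bod1l is ENSMUSG00000061755, on the minus strand at chr5:41787538-41844315 of GRCm38. The deposited counts are for the whole gene and do not show which exons the remaining reads came from.

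Setd1a, which encodes the methyltransferase that BOD1L associates with, was not called, nor were Kmt2b and Bod1. Setd1a had 65.9 and 32.0 CPM in KO cells, against 56.8 and 55.2 CPM in WT cells. The groups overlapped, with a log2 fold change of -0.19 ± 0.241 (adjusted p = 1.00, edgeR). Kmt2b had 208 and 109 CPM in KO cells, against 161 and 189 CPM in WT cells, again with overlap (-0.14; adjusted p = 1.00, edgeR). Both directions turn with 1 library: without KO replicate 2 the log2 fold changes were 0.23 for Setd1a and 0.24 for Kmt2b, and without KO replicate 1 they were -0.85 and -0.72. Bod1, the smaller paralogue of Bod1l, had 51.9 and 78.1 CPM in KO cells, against 45.7 and 43.0 CPM in WT cells. Both KO libraries were above both WT libraries, and the log2 fold change of 0.55 ± 0.279 did not pass the test (adjusted p = 1.00, edgeR). Of 20 tested genes for COMPASS subunits, Bod1l, the targeted gene, alone was called, where 0.191% of all genes were lower. In 5 of the 20, Bod1l included, both KO libraries were below both WT libraries, and in 4 above, against 15.8% and 18.8% of all genes.

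Across the 23501 genes tested, 45 were lower in KO cells (0.191%) and 0 were higher (0%) at an adjusted p below 0.05 by edgeR. At an unadjusted p below 0.05 there were 712 lower and 362 higher genes, and DESeq2 called 157 lower and 7 higher. With replicate number as a pair term, edgeR called 318 genes lower (1.35%) and 73 higher (0.311%), and all 45 genes were among the 318. The median log2 fold change of all genes was 0.02. The counts depend on the libraries that set the spread. With only the 4 Bod1L FCS libraries in the fit, 0 genes were called, with 596 lower at an unadjusted p below 0.05. Those 4 libraries with the pair term gave 1014 lower and 394 higher genes, on 1 residual degree of freedom.

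**Figure D1:**
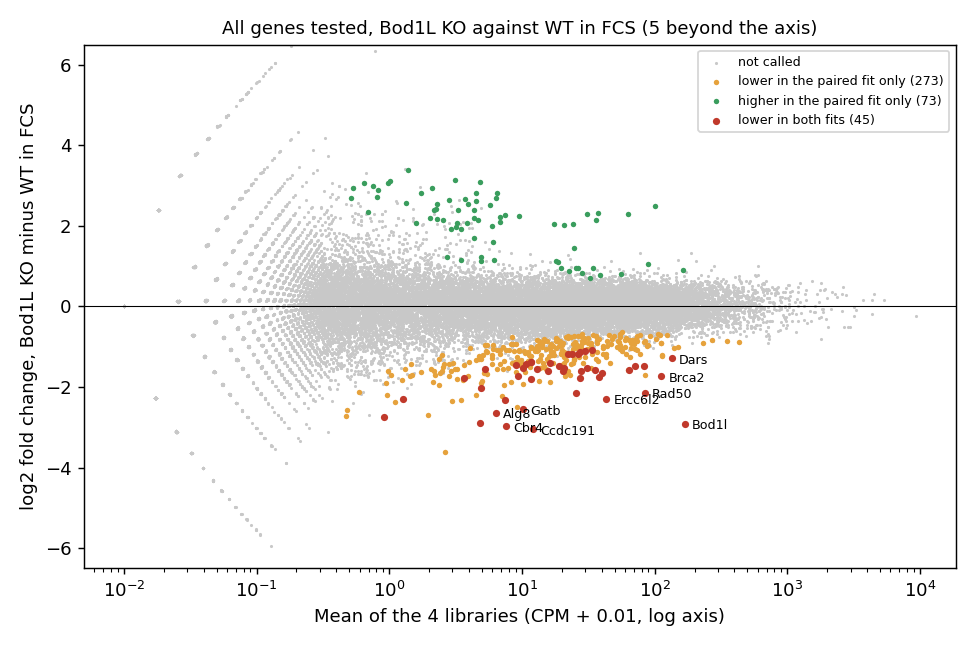
The mean level of each gene over the 4 libraries (CPM, log axis) is plotted against its log2 fold change, Bod1L KO minus WT in FCS, one point per gene, with 5 genes beyond the axis. The 45 genes called lower in both fits sit below 0 over a wide range of levels, the 273 genes called lower in the paired fit alone lie mostly above them, and the 73 genes called higher in the paired fit include many of low level.

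Apart from Bod1l, 44 genes were called lower. In each of them both KO libraries were below both WT libraries, as in 3718 of all genes tested (15.8%). KO cells held 12.0% to 47.6% of the WT level, with a median of 33.3%. The reduction was present in both replicate pairs, with a median log2 ratio on CPM plus 1 of -1.49 for replicate 1 and -1.39 for replicate 2. The genes were chosen by their values in these same libraries, so a fall in both pairs largely follows from that choice. Leaving out 1 of the 4 libraries kept the direction of all 45 genes, and their median stayed between -1.69 and -1.60. Far fewer of the 45 genes were called in each of these fits. Gatb, Bod1l, Det1 and Ercc6l2 were among those called in all of them, and most of the 45 were called in none.

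**Figure D2:**
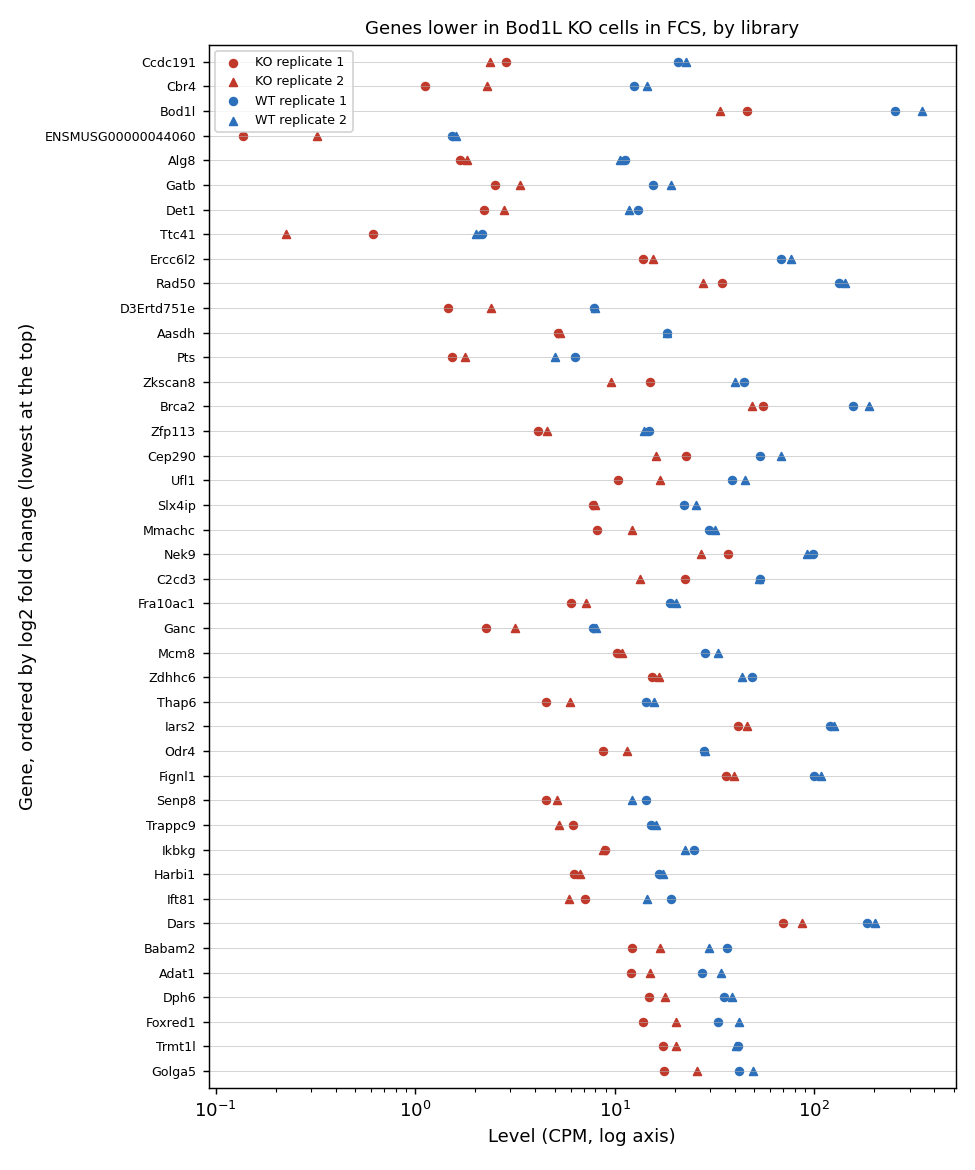
Levels (CPM, log axis) of the called genes that are named in the text are shown in each of the 4 libraries, KO in red and WT in blue, with circles for replicate 1 and triangles for replicate 2. In every row both KO points lie left of both WT points, and the gap narrows from Ccdc191 at the top to Golga5 at the bottom.

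The lowered genes are described below by their known roles. This order was made after their values were seen, and no enrichment was tested.

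Genes for DNA repair and replication forks formed a visible group. Ercc6l2, which encodes a helicase-like protein acting in double-strand break repair, had 13.9 and 15.6 CPM in KO cells, against 67.7 and 76.4 CPM in WT cells. Replicates lay close together, and KO cells held 20.4% of the WT level (log2 fold change -2.29 ± 0.233; adjusted p = 1.52e-05, edgeR). Rad50, a subunit of the MRE11 complex that senses broken ends, had 34.5 and 27.8 CPM in KO cells, against 133 and 142 CPM in WT cells. Its log2 fold change was nearly as large as that of Ercc6l2, at -2.14 ± 0.430, but with a wider error (adjusted p = 0.0330, edgeR).

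Brca2, a central mediator of homologous recombination, had 55.5 and 48.6 CPM in KO cells, against 157 and 189 CPM in WT cells (-1.73 ± 0.287; adjusted p = 0.0118, edgeR). Fignl1, an ATPase that acts in homologous recombination, had 36.0 and 39.5 CPM in KO cells, against 100 and 108 CPM in WT cells (-1.47 ± 0.232; adjusted p = 0.00693, edgeR). Mcm8, a helicase subunit that works with MCM9 in homologous recombination, had 10.3 and 10.8 CPM in KO cells, against 28.3 and 33.0 CPM in WT cells (-1.54). Slx4ip, which binds the nuclease scaffold SLX4, had 7.81 and 7.91 CPM in KO cells, against 22.3 and 25.5 CPM in WT cells (-1.60). Babam2, a subunit of the BRCA1-A complex, was near the threshold (-1.18 ± 0.251; adjusted p just below 0.05, edgeR). It had 12.2 and 16.9 CPM in KO cells, against 36.5 and 29.7 CPM in WT cells. Brca1, a ubiquitin ligase of the same pathway, was closer to the WT level. It had 146 and 125 CPM in KO cells, against 152 and 151 CPM in WT cells (-0.16; adjusted p = 1.00, edgeR). Brca1 was picked for this contrast after its values were seen.

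A second group serves the mitochondrion. Gatb, a subunit of the amidotransferase that makes mitochondrial glutamine tRNA, had 2.52 and 3.36 CPM in KO cells, against 15.5 and 19.1 CPM in WT cells. It held 17.0% of the WT level (-2.55 ± 0.317; adjusted p = 2.48e-04, edgeR). Iars2, the mitochondrial isoleucyl-tRNA synthetase, was lower as well. It had 41.7 and 46.1 CPM in KO cells, against 119 and 126 CPM in WT cells (-1.48 ± 0.273; adjusted p = 0.0213, edgeR). Cbr4, a reductase of mitochondrial fatty acid synthesis, held 12.6% of the WT level, with 1.13 and 2.29 CPM in KO cells and 12.5 and 14.6 CPM in WT cells (-2.98 ± 0.518; adjusted p = 0.0131, edgeR). Foxred1, an assembly factor of complex I, had 13.8 and 20.3 CPM in KO cells, against 33.1 and 42.1 CPM in WT cells (-1.14).

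Cytosolic translation was represented by Dars, the aspartyl-tRNA synthetase, by the tRNA enzymes Adat1 and Trmt1l, and by Dph6, which acts in the diphthamide modification of elongation factor 2. Dars was the most abundant of the lowered genes after Bod1l in WT cells. It had 70.0 and 86.9 CPM in KO cells, against 184 and 200.2 CPM in WT cells (-1.29 ± 0.257; adjusted p = 0.0328, edgeR). The other 3 fell by 1.11 to 1.18 on the log2 scale, among the smallest changes of the called genes.

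Genes of cilia and centrosomes included Cep290, a transition zone protein, with 22.7 and 16.0 CPM in KO cells and 53.5 and 67.8 CPM in WT cells (-1.65 ± 0.282; adjusted p = 0.0122, edgeR). Nek9, which encodes a mitotic kinase, had 37.1 and 27.1 CPM in KO cells, against 99.0 and 92.2 CPM in WT cells (-1.57). The intraflagellar transport gene Ift81 (-1.37) and C2cd3, needed for centriole elongation (-1.57), were the others. Among genes of the ubiquitin system and its relatives, Det1, whose product works with the COP1 ubiquitin ligase, had 2.22 and 2.78 CPM in KO cells, against 13.0 and 11.8 CPM in WT cells. It held 20.1% of the WT level with little spread (-2.31 ± 0.269; adjusted p = 1.11e-04, edgeR). Ufl1, the ligase for UFM1, Senp8, a protease of NEDD8, and Ikbkg, the regulatory subunit of the IκB kinase, fell by 1.61, 1.46 and 1.42 on the log2 scale.

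In the secretory pathway, Alg8, a glucosyltransferase of N-glycan assembly, had 1.67 and 1.81 CPM in KO cells, against 11.2 and 10.6 CPM in WT cells (-2.65 ± 0.527; adjusted p = 0.0328, edgeR). Golga5, a Golgi golgin, had the smallest fall of all, with 17.6 and 25.9 CPM in KO cells and 41.8 and 49.5 CPM in WT cells (-1.07 ± 0.204; adjusted p = 0.0255, edgeR). Trappc9, a vesicle tethering subunit (-1.44), and Zdhhc6, a palmitoyltransferase (-1.53), lay between these. Of metabolic genes, Aasdh, an acyl-CoA synthetase family member, had 5.22 and 5.30 CPM in KO cells, against 18.2 and 18.2 CPM in WT cells (-1.79). Pts, an enzyme of tetrahydrobiopterin synthesis (-1.78), Mmachc, which processes cobalamin (-1.60), and Ganc, a glucosidase (-1.54), were also called.

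The gene with the lowest fold change of all called genes was Ccdc191, which encodes a coiled-coil protein. It had 2.86 and 2.36 CPM in KO cells, against 20.7 and 22.7 CPM in WT cells, or 12.0% of the WT level (-3.05 ± 0.426; adjusted p = 0.00114, edgeR). Zkscan8 and Zfp113, both zinc finger genes, fell by 1.77 and 1.73 on the log2 scale, and Thap6, annotated as a pseudogene in the mouse, by 1.52. Ttc41, D3Ertd751e and ENSMUSG00000044060, the last without a symbol, fell by 2.31, 2.03 and 2.75. Ttc41 and ENSMUSG00000044060 were below 1 CPM in both KO libraries and at 1.53 to 2.16 CPM in the WT libraries. Fra10ac1, Odr4 and Harbi1 fell by 1.56, 1.48 and 1.39.

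Lists of pathway genes show how much of each pathway this group covers. In 5 DNA repair lists with 122 tested genes, 6 were called lower (4.92%) and 0 higher, with a median log2 fold change of -0.13. Among them were Rad50, Brca2, Fignl1, Babam2 and Ercc6l2. Over all genes the share was 45 of 23501 (0.191%). With the pair term 21 were lower (17.2%, against 1.35% of all genes) and 0 higher (0.311% of all genes). At an unadjusted p below 0.05 there were 27 lower and 2 higher, against 3.03% and 1.54% of all genes. The lists were written with earlier results of these data known, so their counts are descriptions. Homologous recombination had 4 of 39 tested genes lower and 11 lower with the pair term, among them the helicase Wrn at -1.60 (adjusted p = 0.0821 without and 1.28e-04 with the pair term, edgeR). Wrn had 9.72 and 12.4 CPM in KO cells, against 30.0 and 37.1 CPM in WT cells, with no overlap. In 20 of the 39 genes both KO libraries were below both WT libraries, as in 15.8% of all genes tested.

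Among 20 genes of the Fanconi anaemia pathway, which repairs DNA crosslinks, 0 were called and 2 were lower with the pair term, and the median was 0.08. Those were Fan1 and Fancd2. Over all genes 0.191% were called lower, and 1.35% with the pair term. Fancd2 had 40.1 and 55.3 CPM in KO cells, against 93.2 and 121 CPM in WT cells (-1.17; adjusted p = 0.0645 without and 0.00250 with the pair term, edgeR). Of 21 damage checkpoint genes, 0 were called and Atr and Rad9b were lower with the pair term. Atr, the kinase that responds to stalled forks, had 30.9 and 48.1 CPM in KO cells, against 91.6 and 168 CPM in WT cells (-1.71; adjusted p = 0.0627 without and 7.17e-04 with the pair term, edgeR). Of 14 end joining genes, 0 were called and Prkdc (-1.59) and Xrcc5 (-0.90), both of the DNA-dependent protein kinase, were lower with the pair term. The excision and mismatch repair list had 2 of 29 genes lower, among them Ercc6l2, described above as acting in double-strand break repair. With the pair term 4 were lower, which added Mlh3 (-0.98) and Parp2 (-0.68).

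Among 35 mitochondrial translation factors and tRNA enzymes, 3 were called lower, Gatb and Iars2 among them, and 9 with the pair term, with a median of -0.05. Ears2, the mitochondrial glutamyl-tRNA synthetase, was one of the 6 added (-1.39; adjusted p = 0.0791 without and 0.00533 with the pair term, edgeR). The 77 genes for mitochondrial ribosomal proteins had 0 calls (0.191% of all genes were lower), Mrpl24 alone lower with the pair term (-0.90; 1.35% of all genes), and a median of 0.17. These shares are near those of all genes. The difference between the 2 lists was not tested. The 13 mitochondrially encoded genes had 0 calls in either fit and a median of -0.24. They summed to 33898 and 21566 CPM in KO cells, against 34452 and 31869 CPM in WT cells, so the low value was in KO replicate 2. Of 20 N-glycan assembly genes 1 was called, Alg8, and 2 with the pair term. Of 41 replication genes 0 were called, and Orc5 and Orc3, subunits of the origin recognition complex, were lower with the pair term. Orc5 had 31.8 and 47.4 CPM in KO cells, against 74.5 and 84.2 CPM in WT cells.

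Several programmes that might respond to damage or to medium had 0 calls by edgeR in the fit without the pair term. The 25 p53 target genes had a median of 0.37, with 4 below 0. In 11 of them both KO libraries were above both WT libraries and in 1 below, against 18.8% and 15.8% of all genes. Rrm2b, a subunit of ribonucleotide reductase, was the 1 called with the pair term and was lower (-0.95; 1.35% of all genes were lower). At an unadjusted p below 0.05 there were 3 p53 target genes, and DESeq2 called 0. The 20 genes of the integrated stress response, 22 of cholesterol synthesis and 21 of the ERK response had 0 calls in both fits and by DESeq2, with medians of 0.04, 0.05 and -0.00, and 0, 1 and 0 genes at an unadjusted p below 0.05. Among 16 linker and variant histone genes 2 were higher with the pair term, against 0.311% of all genes. Hist1h1c had 23.0 and 33.1 CPM in KO cells, against 8.64 and 4.94 CPM in WT cells (2.05; adjusted p = 0.693 without and 0.0315 with the pair term, edgeR). Hist1h2bc had 3.99 and 7.01 CPM in KO cells, against 1.47 and 1.40 CPM in WT cells (1.93; adjusted p = 0.666 without and 0.0371 with the pair term, edgeR).

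The lowered genes were then read in the other comparisons, which share no library with the 4 described. The genes were chosen in FCS Bod1L cells and earlier results of these data were known. All 44 besides Bod1l had a log2 fold change below 0 in Bod1L cells in 2i, with a median of -1.53, against 48.5% of all genes tested. In 2i, 37 of them were called lower (background 0.366%), and in 43 both KO libraries were below both WT libraries, as in 15.5% of all genes. In EpiSC medium all 44 were again below 0, with a median of -1.44, against 40% of all genes, and 27 were called lower (background 0.43%). In the Setd1a line in FCS all 44 were below 0, with a median of -1.80, against 44.1% of all genes, and 36 were called lower (background 0.74%). In the Mll2 line in FCS 27 of 44 were below 0, with a median of -0.03, against 46.3% of all genes, and 0 were called (background 0%). With the pair term 42 were lower in 2i (background 1.8%), 38 in EpiSC medium (1.63%), 43 in Setd1a cells (2.56%) and 0 in Mll2 cells (0.791%). Without the pair term 0 of all 23501 genes tested were called lower in Mll2 cells, so Kmt2b, the targeted gene, was not called lower there. The extent of Mll2 loss in these cells is not shown here.

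**Figure D3:**
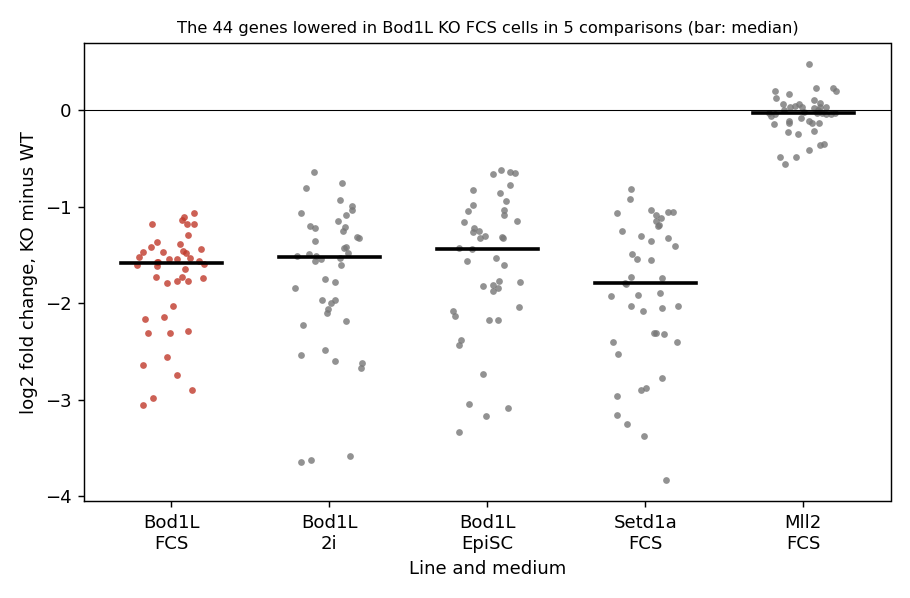
Log2 fold changes, KO minus WT, of the 44 genes lowered in Bod1L KO FCS cells (Bod1l left out) are shown in 5 comparisons, one point per gene with a bar at the median. The points lie below 0 in the Bod1L line in all 3 media and in the Setd1a line in FCS, and around 0 in the Mll2 line in FCS, with medians of -1.59, -1.53, -1.44, -1.80 and -0.03 from left to right.

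As shares of each list with Bod1l included, 38 genes were called in both FCS and 2i, which is 84.4% of the 45 and 44.2% of the 86 lowered in 2i. With EpiSC medium 28 genes were shared, 62.2% of the 45 and 27.7% of 101. With the Setd1a line in FCS 36 were shared, 80% of the 45 and 20.7% of 174. Brca2 was called in FCS and not in 2i. Its log2 fold change was -1.73 ± 0.287 in FCS and -0.64 ± 0.279 in 2i (adjusted p = 0.983, edgeR), and the difference of -1.09 ± 0.395 between media had the smallest unadjusted p of the 44 genes, 0.0114, and an adjusted p of 1.00 by edgeR. Ercc6l2 fell by 2.19 in 2i, 1.61 in EpiSC medium and 2.78 in Setd1a cells, and had -0.37 in Mll2 cells, all on the log2 scale.

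Tests of the difference between comparisons gave few genes. Between FCS and 2i, 0 genes differed in their KO effect by edgeR (0%), with 165 at an unadjusted p below 0.05, 0 with the pair term and 1 by DESeq2. Between FCS and EpiSC medium, 0 genes differed (0%), with 533 at an unadjusted p below 0.05, 2 with the pair term (Tmem63a and Chst15, named after their values were seen) and 3 by DESeq2. Between the Bod1L and the Setd1a line in FCS, Bod1l was the 1 gene that differed (0.00426%), by -2.94 ± 0.340 (adjusted p = 3.11e-04, edgeR). It had a log2 fold change of 0.02 in Setd1a cells. Between the Bod1L and the Mll2 line in FCS, 5 genes differed (0.0213%), and 106 with the pair term. Among them were Bod1l, Gatb, Det1 and Ercc6l2, with differences of -2.72, -2.61, -2.34 and -1.92. At an unadjusted p below 0.05, 4 of the 44 lowered genes differed from 2i (0.702% of all genes), 6 from EpiSC medium (2.27%), 3 from the Setd1a line (1.64%) and 44 from the Mll2 line (2.71%). The 44 genes were chosen for a low value in Bod1L FCS cells, which is one arm of each difference, so these counts largely follow from that choice.

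Location and gene structure were not used to choose the genes. The 45 genes lay on 17 chromosomes and 43 are annotated as protein-coding. Their median WT level was 30.7 CPM, against 36.9 CPM for the 10492 protein-coding genes at 5 CPM or more. They spanned a median of 33222 bp of the genome, against 25268 bp for those genes, and their exonic sequence a median of 5386 bp, against 4383 bp. Long transcripts read low in KO replicate 2, as given above, and the part of this in the length difference was not tested. The longest class of genes had a median KO to WT log2 ratio of -0.08 in replicate 1 and -0.38 in replicate 2.

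Of the 45 genes, 23 (51.1%) had another annotated gene starting within 1000 bp on the opposite strand. Among protein-coding genes at 5 CPM or more, this held for 21 of the 42 lowered genes (50%), against 27.8% of all such genes. In 18 pairs the neighbour was protein-coding and tested. There, 0 neighbours were called in either fit and 1 had an unadjusted p below 0.05. The neighbours had a median log2 fold change of 0.01, against -1.54 for the lowered genes, and 9 of 18 were below 0. Since the lowered member of each pair was chosen for its fall and the neighbour was not, a steeper fall of the lowered member was nearly fixed by the choice. The steepest neighbour was Rbks, beside Babam2, with -1.61 at levels below 2 CPM. The distance between starts ran up to 679 bp.

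The promoter of Mcm8 and Trmt6 printed above has 86 bp between its starts. Trmt6, a tRNA methyltransferase subunit, had 107 and 140 CPM in KO cells, against 99.1 and 112 CPM in WT cells (0.23 ± 0.227). Mcm8, on the other side, held 34.4% of the WT level. Cep290 starts 208 bp from Tmtc3, which had 124 and 81.0 CPM in KO cells, against 119 and 102 CPM in WT cells (-0.11 ± 0.398). Mmachc starts 103 bp from Ccdc163, which had 11.8 and 8.30 CPM in KO cells, against 11.7 and 7.98 CPM in WT cells (0.03 ± 0.286). In each of these 3 neighbours the KO and WT values overlapped. Over the 18 pairs the neighbour's values overlapped in 11, both KO libraries were below both WT libraries in 4 and above them in 3. Among all genes tested these shares were 15.8% below and 18.8% above. Tpr, the neighbour of Odr4, had 617 and 380 CPM in KO cells, against 673 and 709 CPM in WT cells (-0.47 ± 0.254). Sclt1, the neighbour of D3Ertd751e, had 11.6 and 12.3 CPM in KO cells, against 18.1 and 19.1 CPM in WT cells (-0.64 ± 0.333). The kit keeps the strand and counts were made by strand, so reads of both genes can be told apart.

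**Figure D4:**
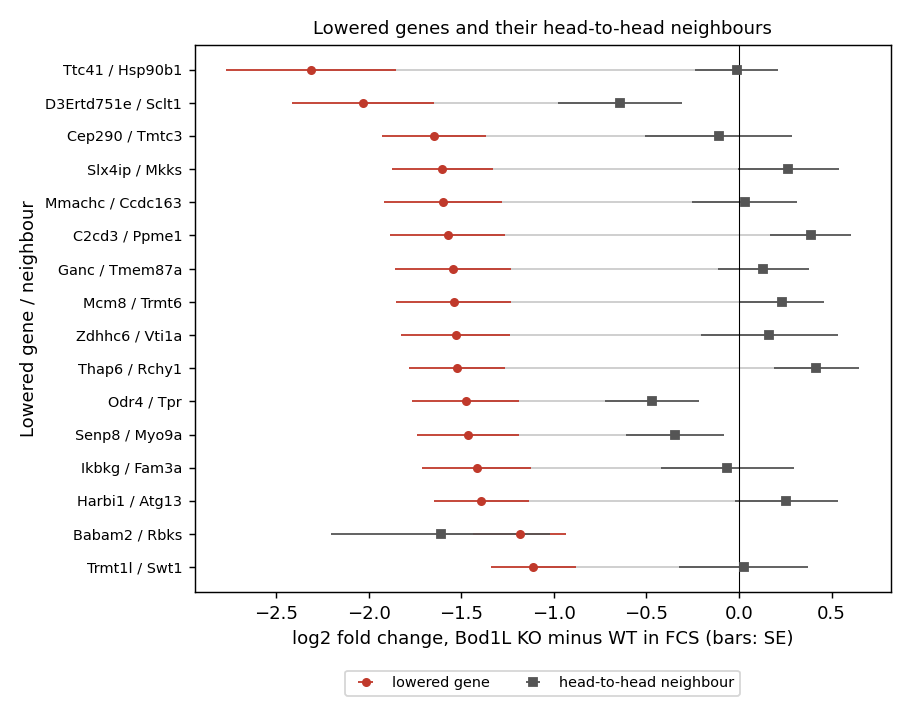
Log2 fold changes, Bod1L KO minus WT in FCS, of 16 lowered genes (red circles) and their protein-coding head-to-head neighbours (grey squares) are joined by a line for each pair, with SE bars; 2 of the 18 pairs hold a gene that is not reported here and are not drawn. The red circles lie between -2.31 and -1.11 while most grey squares lie near 0, and the pair of Babam2 and Rbks at low level is the exception.

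Of the 45 genes, 34 matched a RefSeq promoter of 300 bases. In 31 of these the RefSeq start lay within 100 bp of the start in the deposited table. The start differed by 366 bp for Babam2, 707 bp for Cep290 and 6954 bp for Ttc41, whose window held 1 CpG, so these 3 windows are of another annotated start. Their median GC content was 61%, against 61.7% in protein-coding genes at 5 CPM or more. They had a median of 8 CpG per 100 bases, against 7.33, and 30 of 34 (88.2%) had at least 4 per 100 bases, against 84.8%. Short motifs were searched on both strands. The NRF1 letters GCGCATGC were in 3 (8.82%, against 6.27%), the ETS letters CCGGAAGT in 5 (14.7%, against 9.51%), and the ZNF143 letters ACTACAA in 3 (8.82%, against 4.76%). The E2F letters TTTGGCGC or TTTCCCGC were in 4 (11.8%, against 3.58%), the CRE letters TGACGTCA in 2 (5.88%, against 3.61%) and the TATA letters TATAAA in 1 (2.94%, against 6.11%). The YY1 letters AAGATGGCG were in 0 of 34, against 3.77%. These counts are descriptions of the windows, and the printed promoters of Det1 and Ercc6l2 held none of the motifs.

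The 73 genes called higher with the pair term were of another kind. Their median WT level was 1.62 CPM and their median span 5487 bp. In 68 of them the highest of the 4 libraries was KO replicate 2, and in 51 KO replicate 2 was more than 2-fold above KO replicate 1. Both KO libraries were above both WT libraries in 62, as in 4424 of all genes tested (18.8%). The 10 with the highest fold changes at a mean of 1 CPM or more were Gm4778, A530040E14Rik, Gm5541, Usp17lb, Gm4858, Tcstv3, Gm21818, Gm20767, Tcstv1 and Gm21319. Usp17lb had 3.24 and 13.9 CPM in KO cells, against 0.870 and 1.14 CPM in WT cells (3.09; adjusted p = 1.00 without and 0.00383 with the pair term, edgeR).

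Tcstv1 and Tcstv3 belong to the list of 2-cell-like genes, which are active in the 2-cell embryo and in a small and fluctuating fraction of ESC. All 14 tested members had a log2 fold change above 0, with a median of 2.27, against 0.02 for all genes. By edgeR 0 were called, with 2 at an unadjusted p below 0.05 and 0 by DESeq2. With the pair term 9 were called higher, against 0.311% of all genes. Zscan4a, of the Zscan4 cluster that marks this state, had 54.0 and 156 CPM in KO cells, against 19.1 and 23.4 CPM in WT cells (2.31 ± 1.22; adjusted p = 1.00 without and 0.0128 with the pair term, edgeR). Tcstv1 had 1.98 and 20.1 CPM in KO cells, against 0.990 and 2.43 CPM in WT cells. Its KO values overlapped the WT values, as KO replicate 1 was below WT replicate 2. The size rested on KO replicate 2: without it the median was 1.02 and 12 of 14 were above 0. In bulk RNA more cells in this state and more RNA per such cell cannot be told apart. These genes belong to families of near-identical copies, so the placing of reads among them is uncertain.

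**Figure D5:**
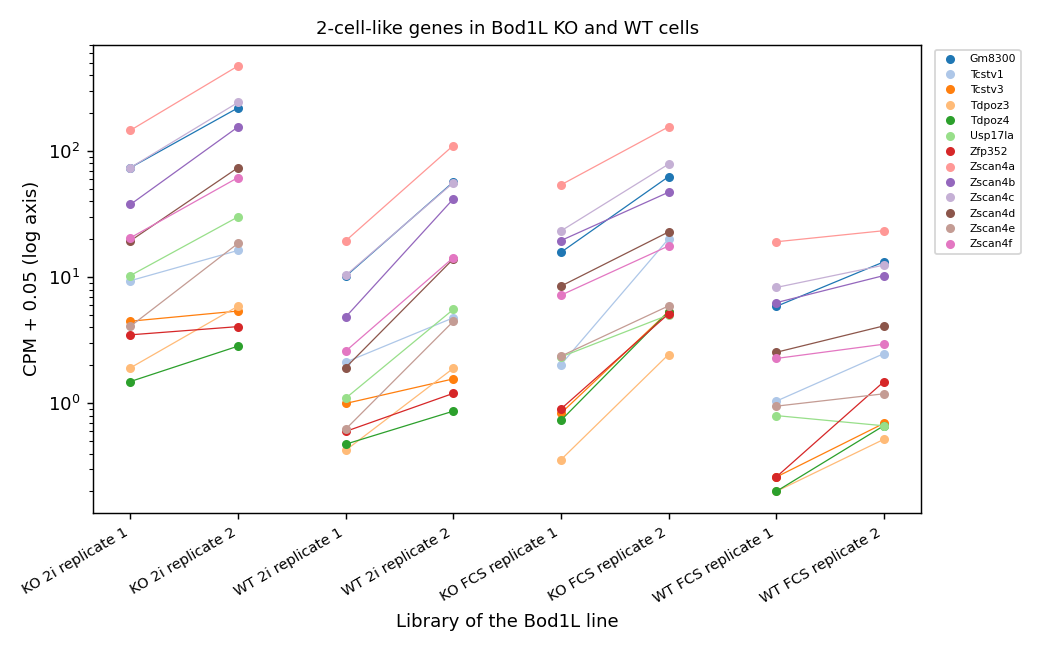
Levels (CPM, log axis) of 13 genes of the 2-cell-like list are shown in the 8 libraries of the Bod1L line in 2i and FCS, one colour per gene, with KO left of WT in each medium and lines joining replicates. In FCS the KO replicate 2 points are the highest of the 4 libraries for each gene, and in 2i the replicate 2 points lie above the replicate 1 points in KO and in WT cells.

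In 2i the same list had a median of 2.14, 13 of 14 genes above 0, 0 calls by edgeR and 10 higher with the pair term (background 0.996%). One abundant member was at a similar level in KO and WT cells. Without it, the summed level of the other 13 genes in 2i was 407 and 1314 CPM in KO cells, against 55.1 and 314 CPM in WT cells. In FCS it was 137 and 434 CPM in KO cells, against 47.5 and 73.6 CPM in WT cells. With it, the FCS sums were 403 and 753 CPM in KO cells, against 322 and 365 CPM in WT cells. In EpiSC medium most of these genes were close to 0 CPM in both groups. In the Mll2 line in FCS the median was 0.01, and in the Setd1a line in FCS it was 2.74 with 3 genes called higher with the pair term (background 1.35%). Whether these medians differ was not tested.

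Markers of the naive state differed between replicate numbers. The 18 naive pluripotency genes had a summed level of 1697 and 3708 CPM in KO cells, against 2026 and 3195 CPM in WT cells, so replicate 2 was higher in both groups. Nanog had 131 and 760 CPM in KO cells, against 241 and 507 CPM in WT cells. Tfcp2l1, a naive state transcription factor, was the 1 member called with the pair term and was lower, with 114 and 70.7 CPM in KO cells and 201 and 176 CPM in WT cells (-1.03; adjusted p = 1.00 without and 0.0360 with the pair term, edgeR). Over all genes 1.35% were lower with the pair term. General pluripotency genes, 12 in number, had a median of 0.01. The 13 formative and primed genes had a median of 0.14. Both lists had 0 calls in either fit and by DESeq2, and 0 genes at an unadjusted p below 0.05.

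The feeder fibroblast, trophoblast, primitive endoderm and neural lists ran the other way, with lower summed levels in replicate 2 in both groups. The germline list was higher in replicate 2, with 119 and 306 CPM in KO cells, against 123 and 257 CPM in WT cells. The mesendoderm list was mixed, with 209 and 267 CPM in KO cells, against 315 and 235 CPM in WT cells. The 14 feeder fibroblast genes summed to 670.1 and 254 CPM in KO cells, against 897 and 355 CPM in WT cells. Both KO values lay below the WT value of the same replicate. Col1a1, a fibrillar collagen, was the 1 member called with the pair term and was lower, with 88.2 and 5.84 CPM in KO cells and 160 and 39.3 CPM in WT cells. The fibroblast genes Fap, Lum and Dcn were at 0.258 CPM or less in each of the 4 libraries, and Fap was at 0 in both KO libraries. Trophoblast genes summed to 634 and 270.1 CPM in KO cells, against 1129 and 318 CPM in WT cells, with Krt8 at 273 and 103 CPM in KO cells and 509 and 111 CPM in WT cells. The primitive endoderm, mesendoderm and neural lists had medians of -0.11, -0.55 and -0.09, and 0 calls by edgeR in either fit, by DESeq2 and at an unadjusted p below 0.05. The germline list of 14 genes had a median of 0.12, with Stk31 alone lower with the pair term (1.35% of all genes). In KO cells the sums of the naive, feeder and trophoblast lists differed about 2-fold or more between replicates. The part of these markers in the results above was not tested.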

How the data were processed

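RNA-seq counts of the 4 Bod1L libraries in FCS were analysed within the deposited table of 36 libraries. Per the file headers, the authors counted reads per gene with featureCounts 1.5.2 (setting 2 for reverse-stranded reads, primary alignments, minimum mapping quality 1) against Ensembl 87 gene models. GSNAP and the build GRCm38 (mm10) are given in the submitters' processing notes. Per the labels' protocols, RNA was poly(A)-selected, primed with random hexamers and made into strand-specific libraries. The 92 ERCC rows held 0 counts and were removed, which left 49671 genes. The deposited counts were not normalized.

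The counts were fitted with edgeR 4.0.16 in R 4.3.3 (TMM scaling, low genes removed by filterByExpr at min.count 10, the quasi-likelihood F test, Benjamini-Hochberg adjustment over 23501 genes, threshold 0.05). All 18 groups entered 1 model with 18 residual degrees of freedom. A second fit had the 18 replicate pairs as a block and 9 residual degrees of freedom. Replicates are numbered in the labels without any statement that equal numbers belong together. The differences between replicates of KO and WT cells correlated in all 9 combinations of line and medium (0.344 to 0.871, and 0.724 for Bod1L in FCS, over 12244 genes at 5 CPM or more), so pairing was inferred from these data. Other settings used DESeq2 1.42.0, RLE factors, no filter, fewer libraries, and each of the 4 libraries left out. The data.table package (1.17.8) and limma 3.58.1 were loaded as well.

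CPM values use the TMM-scaled library size. Ensembl identifiers were matched to GENCODE M21 for symbols, and 345 genes had none. The members and the 26 gene lists (574 genes tested) were chosen with earlier results of these data known. Genes were named by a rule: the targeted genes, the 20 lowest and 20 highest called genes, the 10 highest genes of the paired fit, called list members, the 5 most abundant called genes and genes with a called difference. Other genes that are named serve a list, a pair or a contrast and were chosen after their values were seen. Some genes that pass the rule are not reported here.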

Additional observations from a re-analysis of the deposited data

Results flagged for a closer look

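A knockout effect that differed between the Bod1L line and another line in FCS, by a test of the difference itself (edgeR, Benjamini-Hochberg adjustment), marked the results given here. Bod1l had a difference of -2.94 ± 0.340 (log2, SE; adjusted p = 3.11e-04) between the Bod1L and the Setd1a line. Between the Bod1L and the Mll2 line Bod1l had -2.72 ± 0.339 (adjusted p = 0.00110). These 2 results concern the gene that was targeted in the Bod1L line.

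The others were differences from the Mll2 line. Gatb had -2.61 ± 0.429, Det1 -2.34 ± 0.367 and Ercc6l2 -1.92 ± 0.318, each with an adjusted p of 0.0179 by edgeR. In the Mll2 line itself the log2 fold changes were 0.06 for Gatb, 0.03 for Det1 and -0.37 for Ercc6l2. When a single Bod1L FCS library was left out, 1 or 2 genes differed between these lines. Groups of 2 replicates were too small to test a single library as an outlier.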

How the results depend on the processing

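The 45 genes called lower had log2 fold changes below 0 in each alternative, and their count followed the estimate of the spread. It was 42 with RLE factors and 42 with no filter, of which 42 and 23 were among the 45. With the replicate block it was 318 lower and 73 higher, with DESeq2 157 and 7, with the 12 FCS libraries 19 lower, with the 4 Bod1L FCS libraries 0, and with those 4 and the replicate block 1014 and 394. With no filter on low counts 39 genes were higher. Leaving out 1 library gave 6 to 16 lower and 0 higher genes. Called by each fit without a library were 5 genes. Bod1l kept -2.94 with the 4 libraries alone, where its adjusted p was 0.837 by edgeR. The cause of these shifts was not tested, except that fits of fewer libraries have fewer degrees of freedom.

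Counts of genes that differed from another comparison moved too. For 2i they were 3 with no filter and 1 with DESeq2. For EpiSC medium they were 2 with the block, 6 with no filter and 3 with DESeq2. For the Setd1a line there were 16 with no filter. For the Mll2 line there were 106 with the block, 40 with no filter, 26 with DESeq2 and 1 to 2 without a library. Among single genes and alternatives, 599 values kept direction and side of the threshold, 235 lost their call, 88 gained one and 13 turned, all 13 in uncalled genes and without 1 library. Over the fits without 1 library, Setd1a ran from -0.85 to 0.23, Kmt2b from -0.72 to 0.24, Hmgcs1 from -0.30 to 0.14, Etv5 from -0.21 to 0.0029, L1td1 from -0.41 to 0.017, Dnmt3b from -0.52 to 0.24, Nes from -1.58 to 0.50, Krt8 from -1.64 to 0.74 and Col1a1 from -4.13 to 0.26. The highest value came without KO replicate 2 for Setd1a, Kmt2b, Hmgcs1, Etv5, Dnmt3b and Nes, and without a WT library for L1td1, Krt8 and Col1a1. Of the list counts 497 held and 75 moved by over 1.5 times. The smallest fall called was 1.07 on the log2 scale, so with 2 replicates a group genes not called are not shown to be unchanged.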

Other observations

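DESeq2 called 7 genes higher in KO cells that the edgeR test did not call: Stk16, Ivd, Lyz2, Pccb, Dhrs11, Nagpa and Abcf3, chosen here after their values were seen. Ivd and Pccb encode mitochondrial enzymes of branched-chain amino acid and propionate breakdown. Ivd had 40.1 and 58.6 CPM in KO cells, against 27.0 and 30.3 CPM in WT cells (log2 fold change 0.78 ± 0.189; adjusted p = 0.112 by edgeR and 0.00171 by DESeq2). Pccb had 32.9 and 40.1 CPM in KO cells, against 21.0 and 20.1 CPM in WT cells (0.83 ± 0.237; adjusted p = 0.281 by edgeR and 0.0333 by DESeq2). Nagpa, which uncovers the mannose 6-phosphate tag of lysosomal enzymes, had 23.0 and 28.1 CPM in KO cells, against 10.3 and 13.5 CPM in WT cells (1.10 ± 0.298). In these 3 genes both KO libraries were above both WT libraries, and each was also called with the pair term (adjusted p = 0.0208, 0.0318 and 0.00240, edgeR).

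Lyz2, the lysozyme of macrophages, had 27.0 CPM in KO replicate 1 and 0 in KO replicate 2, and 0 in both WT libraries. Its DESeq2 call rested on that 1 library.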
